A study of Homo sapiens with 23 samples.

Results

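Steady state RNA levels of *AGO1/2/3* knockout cells were compared with those of the wild-type parent, HCT116, an established line from a human colorectal carcinoma. The comparison rested on 6 of the 15 RNAseq samples in a series of 23 samples, taken by their labels as 3 biological replicates of each genotype. The knockout line carries CRISPR edits of *AGO1*, *AGO2* and *AGO3* and keeps *AGO4*, and the wild-type line is the unedited parent. Both were cultured without treatment and harvested at the same time after seeding, according to the methods of the study. The study also reported that the triple knockout cells grew the slowest of its lines. It raised the possibility that slower growth changes expression indirectly, and the part of growth in the results below was not tested. Each genotype is a single cell line ordered from a commercial supplier, so an effect of the edits and a difference that arose in the line cannot be told apart. The spread behind every p-value is that between replicate samples of those lines. As the samples are bulk RNA, fewer cells of a type and less RNA per cell cannot be told apart either. The *AGO1/2* knockout line, with 3 samples and *AGO3* intact, was used as the nearest relative of the triple knockout. The 22 genes that the study had picked for closer examination are not described, chromosome Y was left out, and genes on the long arm of chromosome 8 are marked "8q".

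Argonaute proteins are the effectors of RNA interference. An argonaute holds a microRNA, a short guide RNA cut from a hairpin by Drosha and Dicer, and carries it to messenger RNAs that pair with the seed near the guide's 5′ end. TNRC6 scaffold proteins bind the argonaute and recruit the deadenylase and decapping enzymes that shorten the life of the message. In epithelial tumors, microRNA families are best known for restraining growth regulators, oncofetal genes and the factors of the epithelial to mesenchymal transition.

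Of 57875 genes listed in each sample, 22823 outside chromosome Y had enough reads to be tested. Levels are given as CPM, counts that edgeR scaled to a common library size, and a gene is called where its adjusted p was at or under 0.05 in the edgeR quasi-likelihood fit. Total counts ran from 29140175 to 32381721 in the wild-type samples and from 29274887 to 40567975 in the knockout samples. Some samples stood apart within their genotype. Wild-type replicate 2 had 4134 CPM over the mitosis genes, where the other wild-type samples had 7484 and 7406 CPM. Wild-type replicate 3 had 15190 CPM over the glycolysis and hypoxia genes, against 8995 and 6845 CPM. Knockout replicate 1 held the immediate early genes higher than the other knockout samples, with 49.9 CPM of *FOS* against 7.67 and 6.51 CPM. For some of the results that rest on these samples, values with and without them are given.

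In *AGO1/2/3* knockout cells 4644 genes (20.3% of those tested) were called above wild type and 4513 genes (19.8%) below it. All knockout samples lay above all wild-type samples for 26.3% of the genes and below them for 23.7%. The change was at least 2-fold for 1590 of the higher and 2041 of the lower genes, and at least 8-fold for 125 and 197 genes. Protein-coding genes leaned to the higher side, with 3948 called higher and 3183 lower of 14822. These shares, 26.64% and 21.47%, are the nearer background for the lists of protein-coding genes below. Long non-coding RNA genes leaned to the lower side, with 350 higher and 827 lower of 4810 and a median log2 fold change of -0.13. The balance depended on scaling. Higher genes were 50.7% of all calls with TMM normalization and 36.75% with total counts only (3459 higher and 5953 lower), which moved the median over all tested genes from -0.0081 to -0.15 on the log2 scale. The directions below are those of the TMM fit, and a list is named as turned where total counts reversed its median or its majority.

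The targeted genes were measured first. *AGO1* (chromosome 1) had 138, 108 and 146 CPM in the wild-type samples and 35.5, 33.1 and 28.7 CPM in the knockout samples, a log2 fold change of -2.01 (SE 0.12, adjusted p = 1.1e-08). *AGO3* had 100, 130 and 107 CPM in wild-type and 51.8, 57.4 and 46.1 CPM in knockout cells, a log2 fold change of -1.12 (SE 0.12, adjusted p = 3.4e-06). Both genes were lower in every knockout sample than in any wild-type sample, and RNA of both remained. *AGO2* (8q) went the other way, from 379, 459 and 382 CPM to 518, 558 and 538 CPM (log2 fold change 0.40, SE 0.10, adjusted p = 0.0048). Its RNA level therefore does not mark the edit. The study verified the edits by sequencing DNA, and its western blots found none of the targeted proteins in the knockout lines. *AGO4*, the paralog left intact, rose from 21.9, 28.5 and 24.8 CPM to 69.4, 59.1 and 55.9 CPM (log2 fold change 1.29, SE 0.23, adjusted p = 0.00035). The study stated that earlier mass spectrometry had not detected AGO4 protein in wild-type cells, and protein was not measured here.

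The partners and suppliers of argonaute came next. Of 34 small RNA pathway genes tested, 10 were higher and 4 lower (median log2 fold change 0.11), and the lower ones included *AGO1* and *AGO3* themselves. With total counts only, 8 were higher and 8 lower and the median was below 0. *DICER1*, the enzyme that cuts microRNAs from their precursors, rose from 95.4, 104 and 106 CPM to 268, 280 and 297 CPM (log2 fold change 1.47, SE 0.11, adjusted p = 5.9e-08). *TNRC6A* and *TNRC6C*, scaffolds that bind argonaute, rose by log2 fold changes of 1.27 and 1.33. *PARN*, a deadenylase that trims small RNA ends, fell by 0.62 on the log2 scale. Among 47 deadenylation and decapping genes, 11 were higher and 15 lower, with a median of 0.018. The number of higher genes was 6 without knockout replicate 1, without knockout replicate 3 or without wild-type replicate 1, 7 without wild-type replicate 2, and 6 with total counts only, where the median was below 0. *DCP2*, the decapping enzyme, rose from 127, 115 and 147 CPM to 380, 384 and 409 CPM (log2 fold change 1.59). *PATL1*, which bridges deadenylation and decapping, rose by a log2 fold change of 1.06. *ZFP36*, which brings the deadenylase to AU-rich messages, fell from 92.3, 128 and 89.2 CPM to 27.7, 20.4 and 18.9 CPM (log2 fold change -2.21). *PABPC1* (8q), the abundant poly(A)-binding protein, fell from 2591 to 3004 CPM in wild-type samples to between 1198 and 1411 CPM (log2 fold change -1.1).

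To read the changes against microRNA pairing, 3′-UTRs of the GENCODE canonical transcripts were searched on the transcript strand for the 7-base match of 5 seeds. The guides are shown because these seeds define the classes compared below. Capitals mark the seed, bases 2 to 8 (RefSeq mature sequences, GRCh38.p14).
let-7a-5p: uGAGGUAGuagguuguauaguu
let-7f-5p: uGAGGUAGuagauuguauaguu
miR-21-5p: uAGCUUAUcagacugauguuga
miR-27a-3p: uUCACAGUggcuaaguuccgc
miR-29a-3p: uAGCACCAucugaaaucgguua
miR-125b-5p: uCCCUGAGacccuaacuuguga
Only the first listed position of each guide is given, and any further copies in the genome are left out. For the let-7 guides, which share the same seed, these are chr9:94175962-94175983 and chr9:94176353-94176374 on the plus strand. For the others they are chr17:59841273-59841294 (plus), chr19:13836447-13836467 (minus), chr7:130876748-130876769 (minus) and chr11:122099809-122099830 (minus). Their levels in these cells were not measured by this RNAseq.

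Length of the 3′-UTR moved with the change. Of 12956 protein-coding genes with at least 1 CPM, 12912 had a 3′-UTR. They were divided into 3 length classes of near-equal size. In the short class (up to 758 bases) 18.3% of genes were higher and 30.9% lower. In the middle class (up to 2223 bases) 30.6% were higher and 20.2% lower, and in the long class 39.2% were higher and 15.2% lower. The medians of the classes were -0.096, 0.099 and 0.18. Leaving out ribosomal protein, ribosome biogenesis and oxidative phosphorylation genes, 18.9% of the short class was higher and 29.5% lower, so the lean of short 3′-UTRs was there without them.

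Genes with let-7 matches (CTACCTC, held by 11.7% of these 3′-UTRs) were higher more often than genes without one. Of 11407 genes without a match 28.3% were higher and 22.7% lower. Of 1322 genes with 1 match 36.5% were higher and 18.4% lower, and of 183 genes with 2 or more matches 44.3% were higher and 14.2% lower. Their median log2 fold changes were 0.058, 0.14 and 0.25, and the order of the medians was the same in each knockout replicate. Each replicate was set against the same wild-type mean, so these are not independent comparisons. The classes differed in length too, with median 3′-UTRs of 1201, 2952 and 4979 bases. Within the long class, genes without a match were higher in 38.5%, the 818 genes with 1 match in 40.7% and the 154 genes with 2 or more in 44.8%. Their medians were 0.18, 0.17 and 0.26. In long 3′-UTRs the median for genes with 1 match was thus not above that for genes without a match. Median 3′-UTR lengths of the same groups were 3452, 4292 and 5932 bases, so length still differed within this class. The part of 3′-UTR length in the let-7 classes was not tested further, since genes are not replicates. Matches of miR-21 (ATAAGCT, 10.0% of 3′-UTRs), miR-27a (ACTGTGA, 18.0%), miR-29a (TGGTGCT, 16.7%) and miR-125b (CTCAGGG, 16.8%) gave 39.4%, 36.2%, 39.2% and 34.4% higher genes. In the same order 14.2%, 17.2%, 16.7% and 19.1% were lower. Genes without each match were higher in 28.2%, 27.8%, 27.4% and 28.3%. Over all genes searched, 29.3% were higher and 22.1% lower. Length differed here too, with median 3′-UTRs of 3434 bases with a miR-21 match and 1200 without. Within the long class, genes with a miR-29a match were higher in 44.3%, against 36.7% without it. The same pairs were 40.8% and 38.7% for miR-21, 39.6% and 38.9% for miR-27a, and 39.7% and 38.9% for miR-125b. The order of the seeds was another in the middle class. There genes with and without a match were higher in 38.1% and 30.03% for miR-21 and 33.6% and 30.1% for miR-27a. For miR-29a these shares were 31.9% and 30.4%, and for miR-125b 30.4% and 30.6%. In the long and the middle class, 3′-UTRs with a match were still longer for each seed. For miR-29a in the long class the medians were 4198 bases with a match and 3426 without. The part of length in these shares was not tested.

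**Figure D1:**
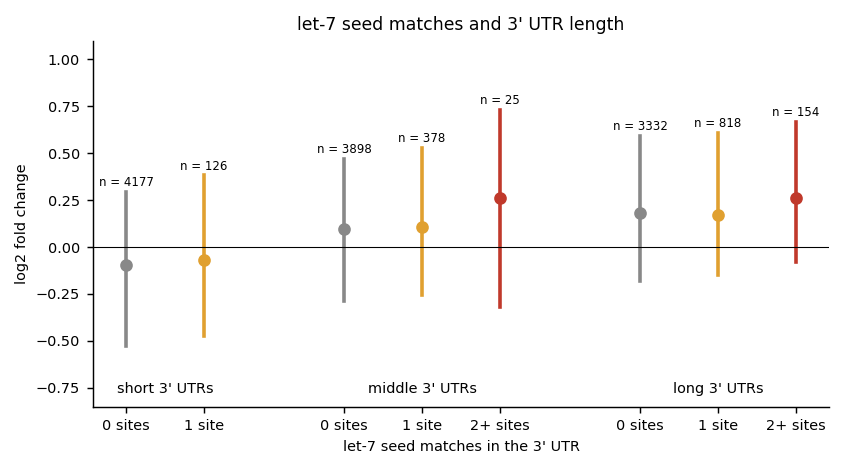
Log2 fold change of *AGO1/2/3* knockout against wild-type cells for protein-coding genes, by the number of let-7 seed matches within 3 classes of 3′-UTR length. Points are medians, bars span the quartiles, and n is the number of genes. Without a match the median is -0.096 for short and 0.18 for long 3′-UTRs. Among long ones it is 0.17 with 1 match and 0.26 with 2 or more. Median lengths in the long class also differ, at 3452, 4292 and 5932 bases for 0, 1 and 2 or more matches.

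Of 61 let-7 target and oncofetal genes tested, 31 were higher and 8 lower, with a median of 0.56. Matches were found for 45 of the members with a 3′-UTR searched (24 higher, 8 lower, median 0.56), and 10 had none (6 higher, none lower, median 0.82). The list therefore leaned to the higher side with and without a match. Among members with a mean of at least 1 CPM, the most raised were *IGDCC3*, a surface receptor of the immunoglobulin family, from 0.470, 0.414 and 0.754 CPM to 4.24, 4.8 and 4.85 CPM (log2 fold change 3.07), and *CPEB2*, a regulator of poly(A) tails, from 2.0, 4.02 and 3.20 CPM to 23.2, 25.3 and 27.6 CPM (log2 fold change 3.04). *PBX3*, a homeobox partner of HOX proteins, rose from 8.84, 6.44 and 9.50 CPM to 39.1, 44.4 and 43.5 CPM (log2 fold change 2.36). *IGDCC3*, *CPEB2* and *PBX3* were picked among genes whose groups did not overlap, so their separation is no result of its own. Against them, *HMGA1*, a chromatin architectural factor, fell from 834, 1373 and 926 CPM to 315, 332 and 347 CPM (log2 fold change -1.66), and *SALL4*, a stem cell zinc finger factor, fell by 2.23 on the log2 scale. *HMGA2*, the best known let-7 target, had a log2 fold change of 1.87. The first 7-base matches in the 3′-UTRs of 4 raised members are shown with 14 bases before them and 1 after (GRCh38, transcript strand, capitals mark the match).
IGDCC3: ttggctctcagcacCTACCTCa
CPEB2: ttcccacctcacccCTACCTCt
PBX3: agagtgctcacttaCTACCTCt
HMGA2: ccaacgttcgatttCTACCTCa
They lie at chr15:65328450-65328471 (minus), chr4:15068886-15068907 (plus), chr9:125966822-125966843 (plus) and chr12:65963299-65963320 (plus). *IGDCC3* and *HMGA2* held 4 matches each, *CPEB2* and *PBX3* 1 each.

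Among 72 microRNA host and long non-coding RNA genes, 17 were higher and 24 lower (median -0.17), including 3 of 3 on 8q that were lower. *MIR200CHG*, the host of miR-200c and miR-141, which hold epithelial cells in their state, fell from 2.16, 1.94 and 2.05 CPM to 0.128, 0.105 and 0.068 CPM (log2 fold change -4.27, SE 0.26, adjusted p = 1.1e-08). *NEAT1*, the scaffold of nuclear paraspeckles, fell from 1131, 1529 and 1072 CPM to 371, 252 and 258 CPM (log2 fold change -2.08). *CASC19* (8q) fell by 3.13 on the log2 scale, from a range of 58.3 to 116 CPM to a range of 9.52 to 11.6 CPM. *MIR1915HG* rose from 4.54, 2.87 and 4.28 CPM to 18.6, 20.4 and 24.2 CPM (log2 fold change 2.43). The library kit marked strand, but the counting was by Salmon on transcripts, so host and overlapping genes may share reads.

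Chromosome arm 8q stood apart from the rest of the genome. Of its 353 genes with at least 1 CPM, 47 were higher and 182 (51.6%) lower, with a median log2 fold change of -0.45, whereas 8p had a median of 0.11. Outside 8q, 26.3% of genes were higher and 21.6% lower. Along the arm the windows from 50 to 70 Mb were not low (medians 0.070 and 0.39), the windows from 70 to 130 Mb had medians between -0.80 and -0.41, the window from 130 to 140 Mb with 12 genes had a median of 0.030, and from 140 to 150 Mb 68 of 91 genes were lower (median -0.82). Against *AGO1/2* knockout cells the median of 8q was 0.011, so the arm did not stand apart from that line. Chromosome 19 (30.01% lower, median -0.089) and chromosome 16 (26.3% lower) leaned to the lower side to a smaller extent, and X to the higher side with 34.2% higher. Of 31 genes of the mitochondrial genome, 10 were lower and none higher. DNA copy number was not analysed here.

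**Figure D2:**
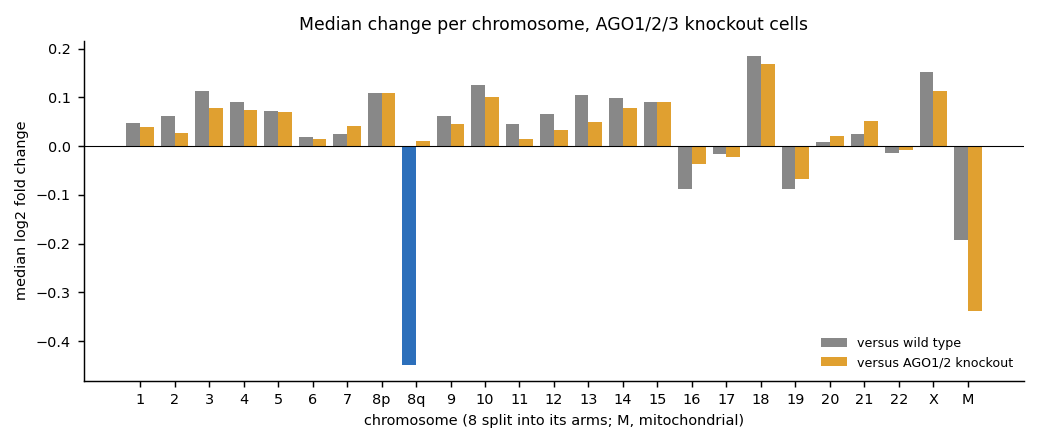
Median log2 fold change of *AGO1/2/3* knockout cells per chromosome over genes with at least 1 CPM, against wild-type cells (grey, with 8q in blue) and against *AGO1/2* knockout cells (orange). The 8q bar reaches -0.45 against wild type and lies at 0.011 against *AGO1/2* knockout cells.

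**Figure D3:**
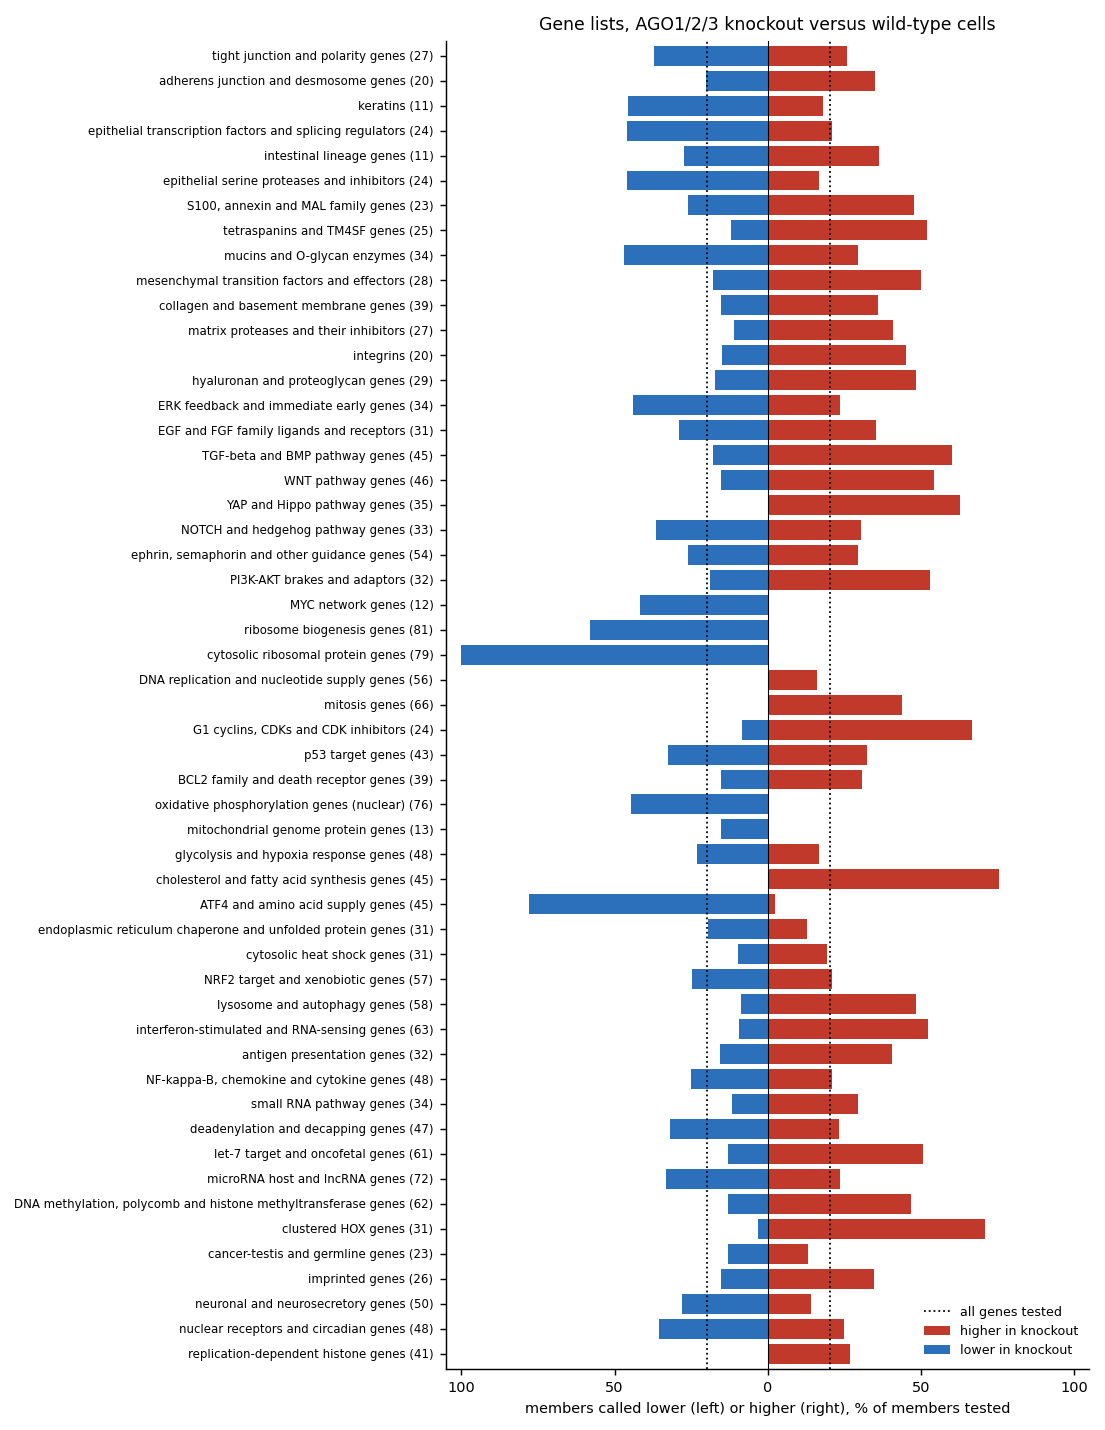
Share of tested members called higher (red, right) or lower (blue, left) in *AGO1/2/3* knockout cells for each gene list, with the number of members tested in parentheses. Dotted lines mark the shares over all genes tested, 20.3% higher and 19.8% lower. Over protein-coding genes the shares were 26.64% higher and 21.47% lower. Ribosomal protein genes, ATF4 genes and ribosome biogenesis genes reach furthest left, and cholesterol, HOX, G1 cyclin and YAP genes furthest right.

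Epithelial programs were in part lost. Of 24 epithelial transcription factors and splicing regulators tested, 5 were higher and 11 lower, with a median of -0.45. The 3 members on 8q were all lower, and without them the median was -0.076. *GRHL2* (8q), a driver of epithelial junction genes, fell from 36.6, 27.4 and 31.3 CPM to 1.12, 1.02 and 1.22 CPM (log2 fold change -4.82, SE 0.18, adjusted p = 1.9e-10). *ESRP1* (8q), which sets the epithelial splice forms, fell from 224, 383 and 174 CPM to 30.8, 29.0 and 26.7 CPM (log2 fold change -3.17, SE 0.27, adjusted p = 3.5e-07). *ELF3*, an epithelial ETS factor, fell from 52.2, 65.4 and 79.5 CPM to 8.22, 6.27 and 6.68 CPM (log2 fold change -3.21). *OVOL2*, which also guards the epithelial state, rose from 0.846, 0.478 and 0.784 CPM to 2.65, 2.45 and 2.41 CPM (log2 fold change 1.83). *SOX9*, a factor of intestinal crypt cells, rose from between 154 and 180.3 CPM to between 325 and 358 CPM (log2 fold change 1.03).

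Junction genes were remodelled rather than lost as a group. Of 27 tight junction and polarity genes, 7 were higher and 10 lower (median -0.23). *RAB25*, a vesicle GTPase of epithelial recycling, fell from 32.7, 35.1 and 36.0 CPM to 0.561, 0.350 and 0.305 CPM (log2 fold change -6.36, SE 0.21, adjusted p = 3.5e-11). Against *AGO1/2* knockout cells its log2 fold change was -5.52. *CLDN7*, an epithelial claudin, fell from 93.3, 157 and 78.4 CPM to 13.8, 10.7 and 9.02 CPM (log2 fold change -3.29). *CXADR*, a junctional adhesion protein, and *PALS1*, a polarity scaffold, rose by log2 fold changes of 1.15 and 1.44. Of 20 adherens junction and desmosome genes, 7 were higher and 4 lower (median 0.24, but 0.078 without wild-type replicate 2), and with total counts only 6 were higher and 7 lower. *CDH1*, the epithelial cadherin, fell from 84.5, 134 and 74.6 CPM to 8.73, 9.21 and 7.76 CPM (log2 fold change -3.51, SE 0.26, adjusted p = 7.5e-08). *EPCAM*, an epithelial adhesion molecule, fell from 205, 211 and 222 CPM to 61.9, 64.0 and 64.8 CPM (log2 fold change -1.74). *PKP3*, a desmosome plaque protein, fell from 41.7, 40.2 and 49.5 CPM to 7.32, 6.87 and 5.29 CPM (log2 fold change -2.75). The desmosomal cadherins *DSC3* and *DSC2* rose, by log2 fold changes of 1.44 and 1.27.

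Keratins stayed abundant in sum, from 1488 to 1681 CPM in wild-type and from 1602 to 2100 CPM in knockout samples. Of 11 tested, 2 were higher and 5 lower (median -0.23), and with total counts only none was higher. Without knockout replicate 2, without knockout replicate 3 or without wild-type replicate 1 none was higher either, 1 was higher without wild-type replicate 3 and 3 without knockout replicate 1. *KRT23* fell from 20.7, 14.6 and 14.2 CPM to 3.16, 2.42 and 2.03 CPM (log2 fold change -2.69). *KRT7* had 5.08, 22.1 and 2.08 CPM in wild-type and 0.459, 0.841 and 0.746 CPM in knockout samples, and its log2 fold change of -3.86 became -2.44 without wild-type replicate 2. Most intestinal lineage genes were silent in this line, with 11 of 40 tested, of which 4 were higher and 3 lower (median 0.19). *PROM1*, which encodes the stem cell marker CD133, fell from 26.7, 33.8 and 27.6 CPM to 3.50, 3.89 and 4.30 CPM (log2 fold change -2.92, SE 0.12, adjusted p = 4.2e-10). *RNF43*, which removes WNT receptors from the surface, rose from 116, 84.9 and 124 CPM to 318, 288 and 252 CPM (log2 fold change 1.40).

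Secreted and surface families of the epithelium were split. Of 24 epithelial serine proteases and inhibitors, 4 were higher and 11 lower (median -0.41). *PRSS22* fell from 4.45, 5.51 and 4.10 CPM to 0.306, 0.385 and 0.203 CPM (log2 fold change -3.96), and the kallikreins *KLK7* and *KLK8* fell by 2.13 and 2.34 on the log2 scale. *PRSS23* rose from 5.86, 5.32 and 6.0 CPM to 55.1, 63.8 and 73.9 CPM (log2 fold change 3.49, SE 0.14, adjusted p = 2.6e-10). Of 34 mucins and O-glycan enzymes, 10 were higher and 16 lower (median -0.45). *MUC4*, a membrane mucin, fell from 1.57, 2.17 and 1.78 CPM to 0.281, 0.175 and 0.237 CPM (log2 fold change -2.94). Among the GALNT enzymes that start O-glycans, *GALNT14* fell by 2.31 on the log2 scale, while *GALNT7*, *GALNT4* and *GALNT10* rose by log2 fold changes of 1.96, 1.53 and 1.52. Of 23 S100, annexin and MAL family genes, 11 were higher and 6 lower (median 0.28, but 0.14 without knockout replicate 3 and 0.088 without wild-type replicate 3). *S100A10* rose from 91.7, 71.9 and 128 CPM to 359, 383 and 432 CPM (log2 fold change 2.01), and *ANXA2*, its binding partner, rose by a log2 fold change of 1.13. Of 25 tetraspanin and TM4SF genes, 13 were higher and 3 lower (median 0.52). *TSPAN7* fell by 2.57 on the log2 scale, and *TM4SF18* was among the genes with the largest increase of all.

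Among mesenchymal and matrix lists, more members were higher than lower. Of 28 mesenchymal transition factors and effectors, 14 were higher and 5 lower, with a median of 0.77. *SPARC*, a secreted matrix protein, rose from 1.44, 1.24 and 2.38 CPM to 53, 52.7 and 51.1 CPM (log2 fold change 4.95, SE 0.45, adjusted p = 5.4e-07). *VIM*, the mesenchymal intermediate filament, rose from 4.54, 3.15 and 4.85 CPM to 42.7, 49.0 and 64.8 CPM (log2 fold change 3.64, SE 0.24, adjusted p = 2.5e-08). *ZEB1*, a repressor of epithelial genes, rose from 7.89, 9.59 and 9.04 CPM to 54.4, 58.5 and 65.9 CPM (log2 fold change 2.75, SE 0.15, adjusted p = 3e-09). *FN1*, fibronectin, rose from 15.2, 14.6 and 15.6 CPM to 102, 85.6 and 86.0 CPM (log2 fold change 2.59). These genes were picked among those whose groups did not overlap, so that separation is no result of its own. *SNAI1*, the classical inducer of the transition, fell from 8.21, 5.26 and 8.77 CPM to 3.96, 3.68 and 2.64 CPM (log2 fold change -1.11), as did *FOXC1*, at -0.99.

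Of 39 collagen and basement membrane genes, 14 were higher and 6 lower (median 0.18), and 3 were lower without knockout replicate 3. The median was -0.035 without wild-type replicate 3, 0.036 without knockout replicate 1, 0.30 without wild-type replicate 2 and 0.037 with total counts only. *COL13A1*, a transmembrane collagen, rose from 8.49, 9.44 and 17.8 CPM to 207, 237 and 236 CPM (log2 fold change 4.25), and *THBS1*, which activates latent TGF-beta, rose from 30.1, 11.9 and 20.3 CPM to 80.7, 148 and 183 CPM (log2 fold change 2.73). *COL27A1* fell by 1.63 on the log2 scale. Of 27 matrix proteases and inhibitors, 11 were higher and 3 lower (median 0.55), 5 were lower with total counts only, and the inhibitors *TIMP3* and *TIMP2* were among the higher genes with log2 fold changes of 2.51 and 1.65. Of 20 integrins, 9 were higher and 3 lower (median 0.44). *ITGB3*, which pairs with the alpha V chain, rose from 0.157, 0.128 and 0.332 CPM to 2.58, 2.84 and 3.02 CPM (log2 fold change 3.74), while *ITGA2*, a chain of the collagen receptor, fell from 186, 215 and 121 CPM to 44.9, 37.8 and 40.0 CPM (log2 fold change -2.09). Of 29 hyaluronan and proteoglycan genes, 14 were higher and 5 lower (median 0.36). The hyaluronan synthases parted, *HAS2* (8q) rising from 0.188, 0.032 and 0.241 CPM to 7.14, 6.94 and 6.27 CPM and *HAS3* falling from 38.3, 37.0 and 79.1 CPM to 9.60, 11.5 and 7.79 CPM. *VCAN*, a large proteoglycan, rose from 187, 179 and 222 CPM to 2081, 1850 and 1620 CPM (log2 fold change 3.24, SE 0.21, adjusted p = 1.5e-08). *CEMIP2*, a surface hyaluronidase, rose by a log2 fold change of 3.03, and *CD44*, the hyaluronan receptor, fell by 0.78 on the log2 scale.

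Signalling pathways were rebalanced, and members of the YAP list were not called lower under the TMM fit. Of 35 YAP and Hippo pathway genes, 22 were higher, none lower and 13 not called, with a median of 0.62. *ANKRD1*, a YAP target of muscle and epithelium, rose from 0.877, 0.606 and 0.633 CPM to 29.5, 49.7 and 79.0 CPM (log2 fold change 6.22, SE 0.37, adjusted p = 9.7e-09). *PTPN14*, a brake on YAP that is also its target, rose from 127, 113 and 122 CPM to 682, 827 and 769 CPM (log2 fold change 2.66, SE 0.10, adjusted p = 1.9e-10). *CRIM1*, a surface regulator of BMP signals, rose by a log2 fold change of 2.27. Leaving out each sample of the comparison gave from 18 to 22 higher genes.

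Of 45 TGF-beta and BMP pathway genes, 27 were higher and 8 lower (median 0.61). The ligand *TGFB2* rose from 1.1, 1.21 and 0.874 CPM to 22.9, 24.6 and 29.0 CPM (log2 fold change 4.59, SE 0.27, adjusted p = 9.5e-09). The inhibitory *SMAD7*, which the pathway induces as feedback, rose from 2.38, 2.61 and 2.08 CPM to 29.1, 31.1 and 34.4 CPM (log2 fold change 3.74, SE 0.28, adjusted p = 7.8e-08). *INHBB*, an activin chain, and *BMP4* rose by log2 fold changes of 3.89 and 2.06. *GDF15*, a stress-induced ligand, fell from 133, 298 and 61.4 CPM to 8.14, 7.64 and 5.76 CPM (log2 fold change -4.51, and -3.79 without wild-type replicate 2). Of 46 WNT pathway genes, 25 were higher and 7 lower (median 0.45). *AXIN2*, a feedback inhibitor and WNT target, rose from 12.1, 3.79 and 18.0 CPM to 99.5, 80.0 and 72.5 CPM (log2 fold change 2.89). *SP5*, another target, rose by a log2 fold change of 3.62. Without wild-type replicate 2 these values were 2.45 and 3.09. The secreted inhibitor *DKK1* fell from 111, 35.6 and 137 CPM to 15.7, 24.0 and 32.5 CPM (log2 fold change -1.98). The naked cuticle paralogs moved apart, with *NKD1* at 2.17 and *NKD2* at -3.61.

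Of 34 ERK feedback and immediate early genes, 8 were higher and 15 lower (median -0.085). The number of higher genes was 5 without knockout replicate 2, without wild-type replicate 1 and with total counts only. *FOS* had 182, 109 and 184 CPM in wild-type and 49.9, 7.67 and 6.51 CPM in knockout samples (log2 fold change -2.88, and -4.50 without knockout replicate 1), and *FOSB* had log2 fold changes of -3.54 and -5.41 in the same fits. *CCND1*, the G1 cyclin, rose from 549.8, 486 and 532 CPM to 2287, 2650 and 2713 CPM (log2 fold change 2.29, SE 0.15, adjusted p = 2.2e-08). *FOSL1* rose by a log2 fold change of 1.32. Of 31 EGF and FGF family ligands and receptors, 11 were higher and 9 lower (median 0.079, below 0 with total counts only and without wild-type replicate 3). *EGF* rose from 0.564, 0.287 and 0.452 CPM to 6.05, 5.43 and 6.81 CPM (log2 fold change 3.80), and *ERRFI1*, which inhibits the EGF receptor, fell from 925, 1659 and 869 CPM to 194, 187 and 204 CPM (log2 fold change -2.56).

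Of 32 PI3K-AKT brakes and adaptors, 17 were higher and 6 lower (median 0.40). *PIK3R3*, a regulatory subunit, rose by a log2 fold change of 2.10. The insulin receptor substrates went opposite ways, *IRS2* at 1.31 and *IRS1* at -1.74, and *DEPTOR* (8q), an inhibitor of mTOR, fell from 5.70, 7.62 and 7.54 CPM to 0.612, 0.385 and 0.305 CPM (log2 fold change -3.95). Of 33 NOTCH and hedgehog pathway genes, 10 were higher and 12 lower (median 0.11, below 0 with total counts only and without knockout replicate 1). More of them were higher than lower without knockout replicates 2 or 3 or wild-type replicates 2 or 3, and 7 were lower without knockout replicate 2. *GLI2*, a hedgehog transcription factor, rose from 5.58, 3.76 and 6.03 CPM to 27.6, 30.6 and 27.0 CPM (log2 fold change 2.47), while its target *GLI1* fell by 1.6 on the log2 scale. *MAML2*, a NOTCH coactivator, rose by a log2 fold change of 2.46. Of 54 ephrin, semaphorin and other guidance genes, 16 were higher and 14 lower (median 0.098), and with total counts only 12 were higher and 15 lower with a median of -0.044. Without wild-type replicate 1 lower genes also outnumbered higher ones. *SEMA3C* rose from 37.2, 18.6 and 30.9 CPM to 297, 288 and 275 CPM (log2 fold change 3.31), and *EPHA1* fell from 17.6, 16.6 and 16.8 CPM to 2.40, 1.96 and 1.52 CPM (log2 fold change -3.10, SE 0.14, adjusted p = 7.5e-10).

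The most uniform change was in the cytosolic ribosome. All 79 ribosomal protein genes tested were lower, 4 of them on 8q, with log2 fold changes from -1.77 to -0.55 and a median of -1.03. Their summed level was between 50340 and 58540 CPM in wild-type and between 24320 and 26300 CPM in knockout samples. All 79 were lower without any 1 of the 6 samples and with total counts only. *RPL7* (8q) fell from 1262, 1173 and 1491 CPM to 356, 379 and 413 CPM (log2 fold change -1.77, SE 0.11, adjusted p = 1.1e-08). *RPL12* fell from 873, 994 and 1022 CPM to 294, 294 and 318 CPM (log2 fold change -1.67, SE 0.13, adjusted p = 1.1e-07). These genes have many processed pseudogenes, and reads may be split between them. Of 178 ribosomal protein pseudogenes tested, 14 were higher and 53 lower, with a median of -0.50. Of 81 ribosome biogenesis genes, 47 were lower and none higher (median -0.43). *FBL*, the methyltransferase of ribosomal RNA, fell from 180.1, 124 and 192 CPM to 62.7, 69.3 and 73.1 CPM (log2 fold change -1.27), and *BOP1* (8q), an assembly factor of the large subunit, fell by 1.5 on the log2 scale. Of 12 MYC network genes, 5 were lower and none higher (median -0.26), *MYCL* from 6.99, 16.4 and 6.69 CPM to 2.58, 2.38 and 2.37 CPM and the antagonist *MXI1* by 1.22 on the log2 scale.

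Cell cycle lists differed in how many members were called. Of 24 G1 cyclins, CDKs and CDK inhibitors, 16 were higher and 2 lower (median 0.91, but 0.67 without wild-type replicate 2). *CDK6*, a partner of cyclin D, rose from 173, 124 and 187 CPM to 820.2, 938 and 941 CPM (log2 fold change 2.48, SE 0.18, adjusted p = 5.9e-08). *CDKN2C*, an inhibitor of CDK4 and CDK6, rose in the same samples, from 5.42, 1.43 and 6.30 CPM to 19.5, 17.8 and 18.8 CPM (log2 fold change 2.09, and 1.65 without wild-type replicate 2). Of 66 mitosis genes, 29 were higher and none lower (median 0.67). Their number was 11 without wild-type replicate 2 (median 0.39), 14 without knockout replicate 3, and 18 without knockout replicate 1 or with total counts only, and none was lower in any of these. Summed over the list, the knockout samples had 11570, 10630 and 11940 CPM and the wild-type samples 7484, 4134 and 7406 CPM. *ANLN*, a scaffold of the cytokinetic ring, rose from 191, 90.5 and 247 CPM to 756, 753 and 896 CPM (log2 fold change 2.19, and 1.85 without wild-type replicate 2). Of 56 DNA replication and nucleotide supply genes, 9 were higher and none lower (median 0.41), a share of 16.1% higher beside 20.3% over all genes. Without wild-type replicate 2 these were 3 higher and 1 lower with a median of 0.10, 5 were higher without any 1 knockout replicate, and 4 with total counts only. *E2F7* rose from 37.9, 29.4 and 33.4 CPM to 88.0, 106 and 107 CPM (log2 fold change 1.58). Of 41 replication-dependent histone genes, 11 were higher and none lower (median 0.58), with 4 to 20 higher when each sample was left out, 5 higher and 2 lower without wild-type replicate 2 (median 0.26), and 4 higher and 1 lower with total counts only. The extremes were 20 without wild-type replicate 1 and 4 without knockout replicates 1 or 3, and the number was 5 without knockout replicate 2 and 7 without wild-type replicate 3. These genes are near-identical in sequence, and their individual counts are uncertain.

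Of 43 p53 target genes, 14 were higher and 14 lower (median 0.25). *PLK2* rose from 108, 80.9 and 116 CPM to 532, 432 and 463 CPM (log2 fold change 2.23), *FAS*, a death receptor, rose by a log2 fold change of 1.49, and *PLK3* fell by 1.73 on the log2 scale. Of 39 BCL2 family and death receptor genes, 12 were higher and 6 lower (median 0.30). *BIRC3*, an inhibitor of apoptosis, rose from 10.8, 8.96 and 12.6 CPM to 41.5, 30.6 and 34.3 CPM (log2 fold change 1.71). *BCL2L11*, which encodes the killer BIM, rose by a log2 fold change of 1.17 and *HRK*, another killer, fell by 1.48 on the log2 scale.

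**Figure D4:**
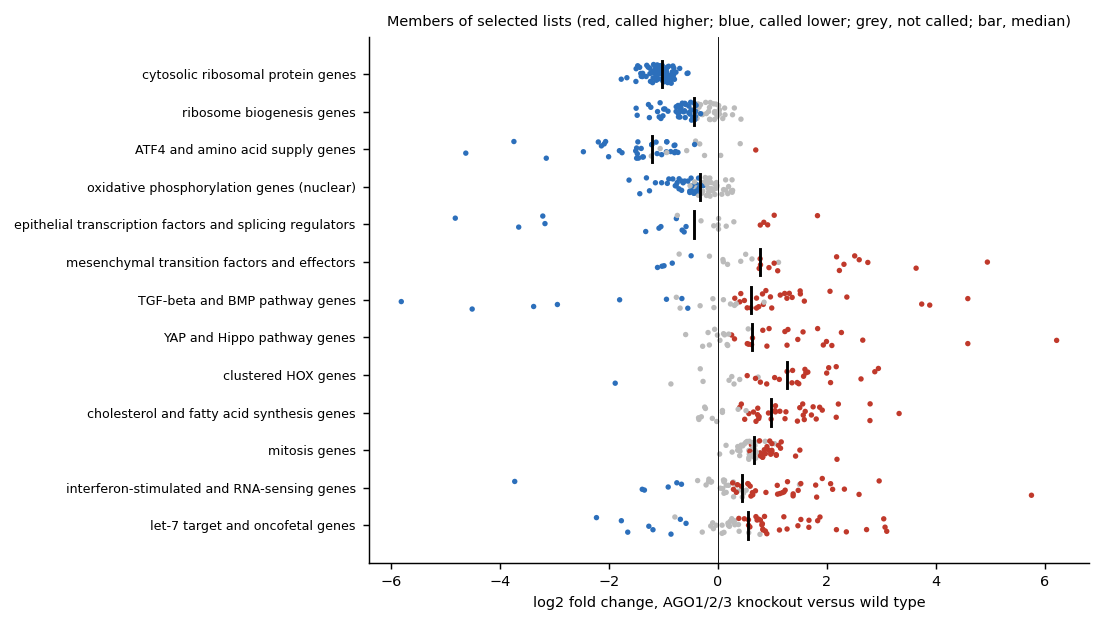
Log2 fold change of each tested member of 13 lists in *AGO1/2/3* knockout against wild-type cells (red, called higher; blue, called lower; grey, not called; black bar, median). All 79 ribosomal protein genes lie between -1.77 and -0.55, and no YAP, cholesterol or mitosis gene is called lower.

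Metabolic programs moved in opposite directions. Of 45 cholesterol and fatty acid synthesis genes, 34 were higher and none lower (median 0.98). From 29 to 34 were higher when each sample was left out, 2 were lower without wild-type replicate 2, and 32 were higher and 1 lower with total counts only. *INSIG1*, the sterol sensor partner that SREBP induces, rose from 26.5, 9.75 and 57.9 CPM to 153, 222 and 277 CPM (log2 fold change 2.79). The value was 2.35 without wild-type replicate 2 and 3.56 without wild-type replicate 3. *ABCA1*, a cholesterol exporter that sterols induce through LXR, rose from 5.29, 4.81 and 5.40 CPM to 58.3, 48.5 and 48.7 CPM (log2 fold change 3.33, SE 0.27, adjusted p = 2e-07). *MYLIP*, another LXR target, rose by a log2 fold change of 2.21.

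Of 45 ATF4 and amino acid supply genes, 35 were lower and 1 higher, with a median of -1.21. *ASNS*, asparagine synthetase, fell from 326, 479 and 74.5 CPM to 21.6, 23.2 and 20.9 CPM (log2 fold change -3.74, SE 0.77, adjusted p = 0.0011). The value was -3.23 without wild-type replicate 2 and -4.23 without wild-type replicate 3. *CHAC1*, which degrades glutathione, fell from 21.3, 45.1 and 1.84 CPM to 0.919, 1.19 and 0.644 CPM (log2 fold change -4.63, and -3.68 without wild-type replicate 2). *TRIB3*, an ATF4 target and inhibitor, fell from 99.6, 135 and 18.0 CPM to 8.70, 9.53 and 10.2 CPM (log2 fold change -3.15, and -2.66 without wild-type replicate 2). Wild-type replicate 3 was the lowest wild-type sample for each, and its summed list level of 5320 CPM, beside 9712 and 12170 CPM, was still above the 3692 to 3966 CPM of the knockout samples. From 31 to 40 genes were lower when each sample was left out.

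Of 76 nuclear oxidative phosphorylation genes, 34 were lower and none higher (median -0.32), including all 4 on 8q. Without wild-type replicate 2, whose summed level was 4680 CPM against 6314 and 6908 CPM in the other wild-type samples, 55 were lower. The number was 28 without knockout replicate 2 or without wild-type replicate 1. *CYC1* (8q), cytochrome c1, fell from 86.3, 62.3 and 94.0 CPM to 26.6, 24.1 and 27.6 CPM (log2 fold change -1.63), and *NDUFA13*, a subunit of complex I, from 57.8, 59.0 and 60.7 CPM to 26.4, 22.7 and 22.3 CPM (log2 fold change -1.31). Of the 13 protein genes of the mitochondrial genome, 2 were lower and none higher (median -0.095), with 1 lower without knockout replicate 2 or wild-type replicate 1 and 6 with total counts only. The mitochondrial share of all counts was 7.83% to 8.34% in wild-type and 6.64% to 7.43% in knockout samples.

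Of 48 glycolysis and hypoxia response genes, 8 were higher and 11 lower (median -0.23). Without wild-type replicate 3 they were 13 higher and 9 lower with a median of 0.12, and without wild-type replicate 2, 20 were lower; 17 were lower with total counts only. The glucose transporter *SLC2A3* rose from 9.21, 13.9 and 28.1 CPM to 268, 423 and 501 CPM (log2 fold change 4.54, SE 0.36, adjusted p = 1.3e-07), and *HIF1A*, the oxygen-regulated factor, by a log2 fold change of 1.0. *HK2*, a hexokinase, fell from 60.6, 73.7 and 148 CPM to 10.7, 15.3 and 14.1 CPM (log2 fold change -2.81, and -2.36 without wild-type replicate 3). Of 58 lysosome and autophagy genes, 28 were higher and 5 lower (median 0.35), and 9 were lower with total counts only. *SMPD1*, acid sphingomyelinase, rose from 1.79, 1.5 and 2.17 CPM to 9.70, 10.1 and 9.59 CPM (log2 fold change 2.42, SE 0.16, adjusted p = 2.1e-08), and the protease *CTSD* by a log2 fold change of 1.53.

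Stress genes outside these lists gave mixed counts near the background. Of 57 NRF2 target and xenobiotic genes, 12 were higher and 14 lower (median -0.061), a balance that turned without knockout replicate 1. *CYP24A1*, the vitamin D hydroxylase, fell from 238, 153 and 288 CPM to 22.3, 17.1 and 20.3 CPM (log2 fold change -3.51, SE 0.36, adjusted p = 2e-06), and the drug exporter *ABCB1* rose by a log2 fold change of 2.09. Of 31 endoplasmic reticulum chaperone and unfolded protein genes, 4 were higher and 6 lower (median -0.19), with 3 lower without knockout replicate 1 and 2 higher and 11 lower with total counts only. The number of higher genes was 1 without knockout replicate 3 and 2 without wild-type replicate 1, and without wild-type replicate 2 higher genes outnumbered lower ones and the median was 0.072. Of 31 cytosolic heat shock genes, 6 were higher and 3 lower (median 0.41), with 3 higher without wild-type replicate 1 and 10 without wild-type replicate 3. Without wild-type replicate 2, 5 were lower and lower genes outnumbered higher ones.

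Immune programs were higher for interferon and mixed for NF-kappa-B. Of 63 interferon-stimulated and RNA-sensing genes, 33 were higher and 6 lower (median 0.45). *SAMD9L*, an antiviral brake on translation, rose from 0.157, 0.032 and 0.030 CPM to 4.95, 3.22 and 4.13 CPM, and its paralog *SAMD9* from 19.9, 7.52 and 16.9 CPM to 62.4, 58.5 and 69.8 CPM (log2 fold change 2.10). *CMPK2* and *IFIT3* rose by log2 fold changes of 2.96 and 2.07. *IRF3*, a factor that starts the response, fell by 0.75 on the log2 scale. Of 32 antigen presentation genes, 13 were higher and 5 lower (median 0.32), with 3 lower without knockout replicate 3. The peptide trimming enzymes *ERAP1* and *ERAP2* rose by log2 fold changes of 1.55 and 1.64, and *HLA-E* fell by 0.69. HLA genes are polymorphic paralogs, and their counts are uncertain. Of 48 NF-kappa-B, chemokine and cytokine genes, 10 were higher and 12 lower (median -0.10). *ICAM1*, an adhesion receptor for leukocytes, fell from 6.01, 8.41 and 9.80 CPM to 0.536, 0.385 and 0.508 CPM (log2 fold change -4.06, SE 0.25, adjusted p = 1.1e-08), and *IL15* rose from 2.88, 2.07 and 2.08 CPM to 9.06, 9.04 and 9.59 CPM (log2 fold change 1.98).

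Developmental genes included the HOX clusters, whose factors set position along the body axis. Of 31 clustered HOX genes, 22 were higher and 1 lower (median 1.27). *HOXA3* rose from 3.07, 2.77 and 3.41 CPM to 26.6, 25.2 and 19.6 CPM (log2 fold change 2.94, SE 0.16, adjusted p = 3.2e-09). *HOXA2*, *HOXB2* and *HOXA4* rose by log2 fold changes of 2.88, 2.63 and 2.17, and *HOXD8* fell by 1.89 on the log2 scale. Neighbouring HOX genes overlap in transcripts, so they are not independent counts. Of 62 DNA methylation, polycomb and histone methyltransferase genes, 29 were higher and 8 lower (median 0.29), and 15 were lower with total counts only. *TET1*, which oxidizes methylated cytosine, rose from 17.6, 18.2 and 23.7 CPM to 65.7, 68.6 and 70.8 CPM (log2 fold change 1.78, SE 0.13, adjusted p = 4.7e-08), and *TET3* by a log2 fold change of 1.08. *PHC1*, a polycomb subunit, fell by 0.85 on the log2 scale.

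The remaining developmental lists stayed closer to the background. Of 48 nuclear receptor and circadian genes, 12 were higher and 17 lower (median -0.16). *NR2F2*, an orphan receptor of mesenchyme, rose from 74.5, 43.1 and 83.4 CPM to 312, 368 and 369.8 CPM (log2 fold change 2.38). *THRB*, a thyroid hormone receptor, fell from 3.63, 3.22 and 3.62 CPM to 0.383, 0.385 and 0.237 CPM (log2 fold change -3.35). The clock genes *CLOCK* and *PER1* had log2 fold changes of 1.18 and -1.96. Of 50 neuronal and neurosecretory genes, 7 were higher and 14 lower (median -0.22), with 3 higher without wild-type replicate 2 or with total counts only and 4 without knockout replicate 2. *SCG2*, a secretory granule protein, fell from 19.2, 24.4 and 18.4 CPM to 2.35, 2.03 and 2.20 CPM (log2 fold change -3.23), *CNTN1* fell by 4.05 on the log2 scale and the adhesion molecule *L1CAM* rose by a log2 fold change of 1.74. Of 26 imprinted genes, 9 were higher and 4 lower (median 0.10), with 5 higher without knockout replicate 3 and 2 lower without knockout replicate 2, and a median of -0.039 with total counts only. Of 23 cancer-testis and germline genes, 3 were higher and 3 lower (median -0.083, but 0.030 without knockout replicate 3), and 5 were lower with total counts only.

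Markers of other cell types were read as a check of identity. The 12 colorectal epithelium markers summed to between 1721 and 1928 CPM in wild-type and between 1637 and 2125 CPM in knockout samples, mostly keratins, with 1 of 8 tested called higher and 3 lower, and none higher without knockout replicates 2 or 3 or wild-type replicates 1 or 2. The median of those 8 was 0.10, but -0.036 with total counts only and -0.061 without wild-type replicate 2. *VIL1*, *LGALS4* and *GPA33* were under 0.5 CPM and *CDX1* was at 0 in all 6 samples, so these defining markers were absent or nearly so from both lines. The 10 fibroblast markers summed to between 23.8 and 31.2 CPM in wild-type and between 27.6 and 30.5 CPM in knockout samples, nearly all of it *COL1A1*, with 1 of 5 tested higher and *POSTN* at 0. The leukocyte markers summed to between 3.50 and 7.15 CPM and between 2.89 and 3.62 CPM, with 2 of 4 tested lower, none of them without knockout replicates 2 or 3 or wild-type replicates 2 or 3, and with *CD3D*, *MS4A1* and *FCGR3A* at 0. The endothelial markers summed to between 7.49 and 8.63 CPM and between 6.38 and 6.98 CPM, with 1 of 6 lower and none without knockout replicates 1 or 2 or wild-type replicate 1.

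The genes with the largest changes belonged to no single program. By the rule of size, *MYBPH*, a myosin-binding protein of muscle (chromosome 1), rose from 0.094, 0 and 0 CPM to 14, 14.6 and 13.2 CPM, a ratio of 448 with a 95% counting interval from 153 to 2177. *TM4SF18* rose from 1.1, 0.319 and 1.69 CPM to 118, 175 and 189.8 CPM (log2 fold change 7.27, SE 0.36, adjusted p = 1.8e-09). *DCLK1*, a doublecortin kinase of tuft and neuronal cells, rose from 1.35, 3.83 and 2.74 CPM to 312, 333 and 372 CPM (log2 fold change 7.0, SE 0.29, adjusted p = 3.2e-10). *GPR55*, a receptor for lysophospholipids, had 3 reads over the wild-type samples and 488 over the knockout samples, a ratio of 161 with an interval from 54.9 to 785. *SERTAD4*, *LYZ* (lysozyme), *MAMDC2*, *TENM3* (a teneurin adhesion receptor) and *EFNA5* (an ephrin ligand) rose by log2 fold changes of 6.61, 5.87, 5.56, 5.54 and 5.49, and that of *SERTAD4* was 7.26 without wild-type replicate 1. With *ANKRD1*, *SAMD9L* and *HAS2* (8q), above, these are the 12 protein-coding genes with the largest increase.

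Among the largest decreases, *ANXA10*, an annexin of gastric epithelium, went from 9.49, 11.5 and 12.3 CPM to 0.051, 0 and 0 CPM, a ratio of 541 with a counting interval from 150 to 4476. *LYPD6B* and *LRP1B* had ratios of 260 (71.5 to 2149) and 205 (69.7 to 995). *PCDH7*, a protocadherin, fell from 192, 156 and 196 CPM to 3.09, 2.77 and 2.98 CPM (log2 fold change -5.94, SE 0.28, adjusted p = 9.9e-10). *SYK*, a kinase of immune and epithelial cells, fell from 7.24, 4.84 and 5.22 CPM to 0.102, 0.070 and 0.203 CPM (log2 fold change -5.50, SE 0.31, adjusted p = 4.6e-09). *GRB14*, an adaptor that dampens insulin signals, and *ABCA12*, a lipid transporter, fell by 6.94 and 5.47 on the log2 scale. The value of *GRB14* was -6.27 without knockout replicate 1 and -8.25 without knockout replicate 2. Several decreases leaned on wild-type replicate 2. *LCN2*, an iron-trapping defence protein, had 1.44, 17.9 and 0.814 CPM in the wild-type samples and 3 reads over the knockout samples, a ratio of 213 with an interval from 72.5 to 1034, and its fitted log2 fold change of -7.59 became -5.06 without that replicate. *LURAP1L* had 11.4, 42.4 and 1.75 CPM, and its log2 fold change went from -7.76 to -6.30 without it and to -9.80 without knockout replicate 1. *SPRR2D*, a protein of the cornified envelope, had 1.13, 7.39 and 0.211 CPM and no read in the knockout samples, at least 30.8-fold lower against a floor of 3 counts per library (adjusted p = 0.012). *CSTA*, a cystatin of the same envelope, fell from 12.1, 19.5 and 3.41 CPM to 0.102, 0.035 and 0.068 CPM.

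**Figure D5:**
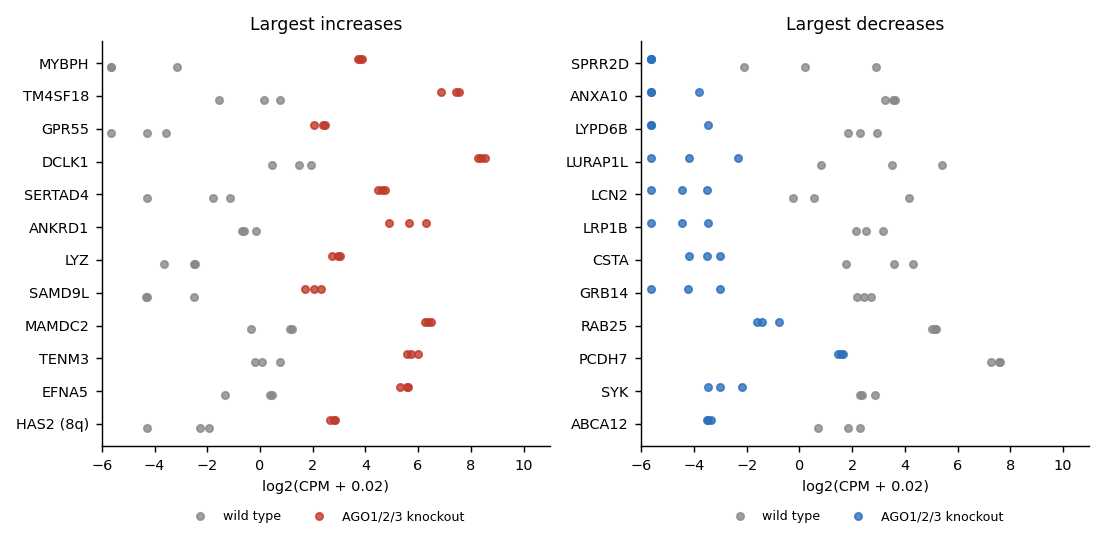
Level of the 12 protein-coding genes with the largest increase (left) and the largest decrease (right) in each wild-type (grey) and *AGO1/2/3* knockout (color) sample, as log2(CPM + 0.02), so that 0 CPM lies at the left edge. Only genes whose groups did not overlap could be picked, so the separation of the 24 genes is no result of its own. The wild-type samples of *LCN2*, *LURAP1L* and *SPRR2D* are spread over several log2 units.

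Gene families were also read without a chosen list, by the letters of their symbols. Of 157 families with at least 10 measured members, HOXA had the highest share called higher (10 of 11, median 1.6). The letters CDKN, which include the CDK inhibitors, followed with 9 of 10 (median 1.06). Septins, the filament-forming GTPases, had 10 of 12 (0.71), and myotubularin phosphatases (MTMR) 9 of 11 (0.60). Bitter taste receptors (TAS) had 8 of 12 higher and 3 lower, from genes of a few CPM that lie in clusters and overlap. ACTR, MFSD and TP tied at 60.0%. On the lower side NPIPB had 10 of 10 (median -0.69), RPL 45 of 49 and RPS 31 of 43. The letters EEF, which include the translation elongation factors, had 8 of 12 (median -0.64). The 5 higher RPS genes were RPS6K kinases, which share only the letters, and other letter groups can hold such members too. Integrator subunits (INTS, 8 of 16) and synaptotagmins (SYT, 5 of 10) followed. NPIPB genes are near-identical copies on chromosome 16, so their counts are uncertain and may not be independent.

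Last, the triple knockout was set beside the *AGO1/2* knockout, a comparison that shares its knockout samples with the one above. Here 2720 genes (11.9% of those tested) were higher and 2295 (10.1%) lower in *AGO1/2/3* than in *AGO1/2* knockout cells. Of the ribosomal protein genes 78 of 79 were lower (median -0.79), and of the ribosome biogenesis genes 22 were lower and none higher. YAP genes had 20 higher and 1 lower (median 0.64), HOX genes 17 higher and none lower (0.55), TGF-beta genes 21 higher and 3 lower (0.39), WNT genes 16 and 5, let-7 target genes 26 and 6 (0.35), and mesenchymal genes 14 and 3 (0.54). ATF4 genes had 15 lower and none higher (-0.64). Of the epithelial transcription factors and splicing regulators 8 were higher and 5 lower (median 0.0056). Of the tight junction and polarity genes 6 were higher and 7 lower (0.0014), so neither list as a whole was lower than in *AGO1/2* knockout cells. Of the epithelial serine proteases 3 were higher and 10 lower, and of the mucins and O-glycan enzymes 10 and 8. Of the 13 mitochondrial genome protein genes 7 were lower. Of the cholesterol genes 12 were higher and 2 lower (0.45), and of the mitosis genes 5 were higher and none lower.

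The interferon list went the other way in this comparison, with 4 genes higher and 17 lower in *AGO1/2/3* than in *AGO1/2* knockout cells (median -0.36), whereas 33 were higher than in wild-type cells. It was not the only list to turn. The S100, annexin and MAL genes had 4 higher and 7 lower (median -0.24), and the antigen presentation genes 4 and 6 (-0.086). In the opposite sense, the ERK feedback and immediate early genes had 11 higher and 3 lower (0.026). *SAMD9L* was higher than in both lines (log2 fold change 4.56 against *AGO1/2* knockout cells), and *SAMD9* and *IFIT3* differed from *AGO1/2* knockout cells by -0.037 and -0.17 (adjusted p = 0.95 and 0.77). Of single genes, *MIR200CHG* had a log2 fold change of -4.15 against *AGO1/2* knockout cells and -4.27 against wild-type cells. *VCAN* (0.43, adjusted p = 0.12), *MYBPH* (0.26, adjusted p = 0.55) and *LRP1B* (0.38, adjusted p = 0.92) were not called between the knockout lines. Nor were *ANXA10* (-1.58, adjusted p = 0.26) and *ABCA12* (-0.64, adjusted p = 0.68), with means of 0.070 and 0.11 CPM in *AGO1/2* knockout cells. *ZEB1* and *VIM* were higher than in *AGO1/2* knockout cells by 1.17 and 1.12, *FN1* by 2.31 and *ANKRD1* by 5.22. *CDH1* was lower by 1.85 on the log2 scale. *DICER1* was higher by 0.77 and *AGO2* (8q) by 0.67.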

How the data were processed

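RNA of HCT116 cells, wild-type or with a single, double or triple argonaute knockout (5 genotypes), was sequenced paired-end after ribosomal RNA removal with a strand-specific kit, 3 samples each. The deposited values are estimated counts per gene that the authors made with Salmon (version 0.11.0 in the submitters' processing notes, which also name STAR 2.5.3a and DESeq2), and they were rounded to whole numbers here. Headers of the *AGO2* knockout tables name a different quantification run, and those samples entered only the shared estimate of spread. Gene names, positions and 3′-UTRs came from GENCODE annotation of GRCh38.

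All 15 samples were fitted together in edgeR 4.0.16 (R 4.3.3) with filterByExpr, TMM factors and the quasi-likelihood test, and p-values were Benjamini-Hochberg adjusted over all genes tested. SE is the standard error of the log2 fold change. An exact permutation test of 3 against 3 samples cannot go below p = 0.1. Total counts from 29140175 to 40567975 set the precision, and counting intervals (95%) and floors cover counting error only. In data simulated for *AGO1/2/3* knockout against wild type over 22361 genes, edgeR recovered 81 of 100 genes changed 2-fold and 100 of 100 changed 4-fold, with 6 false calls. DESeq2 made 25 false calls over 22842 genes. Few genes were changed in the simulation, evenly up and down, so it cannot show errors of scaling or of outlying replicates. Alternatives were DESeq2 1.42.0, other scalings, other filters, fewer samples, a replicate block and each replicate left out.

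The members and gene lists were chosen with earlier results of these data known. Named were *AGO1* to *AGO4*, then, among called genes of at least 1 CPM whose groups did not overlap, the 12 protein-coding genes with the largest change in each direction and up to 4 per list and direction; a few members that define a list were added after their values were seen. List counts carry no test. The shares to set beside them are 20.3% higher and 19.8% lower over all genes tested. Over protein-coding genes they are 26.64% and 21.47%.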

Additional observations from a re-analysis of the deposited data

Results flagged for a closer look

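Among the named genes, 3 lay between the other lines, lower in *AGO1/2/3* knockout than in wild-type cells but higher than in *AGO1/2* knockout cells, each by the same edgeR test. *ACVR2A*, an activin receptor, had log2 fold changes of -0.66 (adjusted p = 7.7e-05) against wild-type and 0.81 (adjusted p = 4.6e-05) against *AGO1/2* knockout cells. *MAP2*, a microtubule protein of neurons, had -1.60 (adjusted p = 0.00038) and 1.93 (adjusted p = 0.00066). *COL4A6*, a basement membrane collagen, had -0.62 (adjusted p = 0.026) and 0.88 (adjusted p = 0.014), and its call against wild type was lost without knockout replicate 1, knockout replicate 3 or wild-type replicate 3. Both comparisons share the *AGO1/2/3* knockout samples.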

How the results depend on the processing

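With a minimum change of 2-fold, 1590 genes were higher and 2041 lower than in wild-type cells, and 677 higher and 828 lower than in *AGO1/2* knockout cells. Leaving out each replicate gave from 3624 to 4429 higher and from 3938 to 4793 lower genes against wild type, and from 1825 to 3084 higher and from 1587 to 2822 lower against *AGO1/2* knockout cells. No gene called against wild type was called in the opposite direction under any alternative. Of 368 named genes, 79 lost their call under at least 1 of 19 alternatives and none reversed. Of 57 lists, 7 changed their majority of calls and 13 the sign of their median under at least 1 alternative, and the cause was not tested. Same-numbered knockout and wild-type samples deviated together with correlations of -0.029, 0.048 and 0.097, so the numbers were not taken as pairs. A fit with a replicate block gave 4585 higher and 4351 lower genes against wild type, and 2586 and 2127 against *AGO1/2* knockout cells. Depth limited genes of a few reads, whose ratios have wide counting intervals.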
